A study of Homo sapiens with 6 samples.

Results

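The genes that make cholesterol and fatty acids were followed across 6 arrays of human lung cancer cells. The set was a fixed list of 30 genes that the sterol regulatory element-binding proteins (SREBPs) are known to switch on. It was drawn up by name, with earlier results of these data known. Of the 30 listed genes, among 20046 genes named on the array, 29 had a probe, 28 were detected on at least 1 array and 26 on all 6. FDFT1, squalene synthase, was not analysed here. STARD4, a carrier that moves sterol between membranes, was detected on 0 arrays and entered no comparison.

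SREBPs are membrane-bound transcription factors held in the endoplasmic reticulum while cholesterol is plentiful. When sterol falls, they are carried to the Golgi, cut free and sent to the nucleus, where they bind sterol regulatory elements, often beside boxes for the factors NF-Y and Sp1. SREBP2 mainly drives the mevalonate and sterol enzymes and SREBP1 mainly the fatty acid enzymes, and many tumour cells rely on both routes for membranes.

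HCC95 and H460 are established lung cancer lines, obtained from the American Type Culture Collection per the labels. HCC95 cells carried the vector pSIn-E2F-LZTFL1-ires-GFP-puro, which gives LZTFL1 together with GFP, or the GFP control vector pSin-E2F-GFP-puro, each with TGFβ or with no treatment. H460 cells carried one or the other vector and had no TGFβ. All were grown in serum-containing medium. The labels give no dose or time for TGFβ, and nothing says how many clones or cultures stand behind an array. Each of the 6 groups had 1 array, so no value here has a replicate, and the p-values given do not measure the spread between cultures.

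The only LZTFL1 probe did not rise with its vector. Its normalized log2 value was 5.07 on the HCC95 array labelled LZTFL1 with TGFβ, where it was not detected, against 5.40 with GFP and TGFβ, also not detected. Without TGFβ it was 5.07 and not detected on the array labelled LZTFL1, against 5.75 with GFP. In H460 it was 6.39 on the array labelled LZTFL1 and 6.36 on the GFP array. Its place in the transcript is unknown here, so it may not read the vector. PMEPA1 and SMAD7, genes that TGFβ is known to induce, fell by 2.77 and by 0.70 on the log2 scale on the TGFβ-labelled arrays (adjusted p = 1.81e-10 and 0.0299 in the limma fit described below). The groups are therefore named by their labels throughout, and every direction below goes from label to label.

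Median signal ran from 104 to 125 per array, and 14136 to 16423 probes were detected. In HCC95 it was 14232 probes with LZTFL1 and TGFβ and 14136 with GFP and TGFβ. On the untreated HCC95 arrays it was 16423 with LZTFL1 and 16067 with GFP. In H460 it was 16038 with LZTFL1 and 14715 with GFP. Detection thus differed with the labels, and its part in the comparisons below was not tested. HCC95 arrays had KRT5, KRT14, KRT15, DSG3, EPCAM and CDH1, markers of squamous and other epithelium, whereas both H460 arrays lacked all 6 and had KRT8, KRT18 and KRT19. On each H460 array 3 of the 7 measured squamous markers were detected. Of 12 measured markers of blood, vessel and connective tissue cells, 6 (PTPRC, CD3E, PECAM1, CDH5, DCN and LUM) were detected on 0 arrays. The 12 markers summed to 2346 on the linear scale with LZTFL1 and TGFβ and 3087 with GFP and TGFβ, against 1342 with LZTFL1 and 1855 with GFP in untreated HCC95. Of the 4 tested, CD68, VWF and THY1 were higher with the TGFβ label and THY1 was lower with the LZTFL1 label. The 7 measured squamous markers summed to 15182 with LZTFL1 and TGFβ and 14975 with LZTFL1, against 18285 with GFP and TGFβ and 20331 with GFP, and 5 of the 7 were called lower with the LZTFL1 label and 3 of 7 with the TGFβ label. The 5 general epithelial markers summed to 17527 with LZTFL1 and TGFβ and 19477 with LZTFL1, against 14755 with GFP and TGFβ and 16819 with GFP, and 2 of them (KRT8 and KRT19) were called higher with the LZTFL1 label. In H460 they summed to 2597 with LZTFL1 and 3189 with GFP. In H460 the squamous sum was 1132 with LZTFL1 and 1106 with GFP. The part of these shifts in the results below was not tested. In bulk RNA, fewer cells of a kind and less RNA per cell cannot be told apart.

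The first comparison asked how the synthesis genes differed between the LZTFL1-labelled arrays and the GFP arrays in HCC95. A fit over the 4 arrays with TGFβ as a term called 4 of 27 tested synthesis genes higher and 0 lower with the LZTFL1 label, where 3.74% of 12735 features were called higher and 3.89% lower. The 4 were HMGCS1 and FDPS of the mevalonate pathway, and ACLY and ACSS2, the enzymes that supply acetyl-CoA. In all, 21 of the 27 differences lay above 0, with a median of 0.23 on the log2 scale against 0.01 for all features. An unadjusted p under 0.05 was found for 12 of the 27 (44.4%), against 22% of all features. Among these 12, SQLE (-0.34) and FADS1 (-0.28) were lower. No synthesis gene reached 2-fold in either HCC95 pair, where 1.02% of features in the untreated pair and 1.26% in the TGFβ-labelled pair did. The error term of this fit is the change of the LZTFL1 difference between the 2 treatments, and with the mean over each gene's probes, or with a common prior variance in place of one that follows brightness, the 4 calls became 0.

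ACSS2 makes acetyl-CoA from acetate. Its normalized log2 value was 11.92 with LZTFL1 and 11.17 with GFP on the TGFβ-labelled arrays, and 10.61 with LZTFL1 and 10.09 with GFP on the untreated arrays. Both LZTFL1-labelled arrays were thus above the GFP array of the same treatment, and the groups overlapped, since the GFP array with TGFβ stood above the untreated LZTFL1 array. The fitted difference was 0.64 (1.56-fold, SE 0.123, adjusted p = 0.00136, limma). The other 2 detected ACSS2 probes differed by 0.86 and 1.40 with TGFβ and by 0.54 and 0.80 without it, the same direction.

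ACLY cleaves citrate to acetyl-CoA in the cytosol, the main carbon source of both pathways. It had 11.87 with LZTFL1 and 11.33 with GFP on the TGFβ-labelled arrays, and 11.52 with LZTFL1 and 11.08 with GFP on the untreated arrays. Here both LZTFL1-labelled arrays lay above both GFP arrays. The fitted difference was 0.49 (1.41-fold, SE 0.116, adjusted p = 0.00822, limma), and a second ACLY probe differed by 0.37 with TGFβ and 0.54 without.

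HMGCS1 joins acetyl-CoA and acetoacetyl-CoA at the entry of the mevalonate pathway. It had 12.21 with LZTFL1 and 11.60 with GFP on the TGFβ-labelled arrays, against 11.33 with LZTFL1 and 11.04 with GFP on the untreated arrays. The array with both labels was the highest and the array with neither the lowest. The fitted LZTFL1 difference was 0.45 (1.37-fold, SE 0.119, adjusted p = 0.0183, limma).

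FDPS makes farnesyl diphosphate, from which sterols and prenyl groups branch. It had 9.14 with LZTFL1 and 8.31 with GFP on the TGFβ-labelled arrays, and 8.40 with LZTFL1 and 8.05 with GFP on the untreated arrays. The 2 LZTFL1-labelled arrays were the 2 highest. The fitted difference was 0.59 (SE 0.164, adjusted p = 0.0249, limma). HMGCS1 and FDPS were each read by 1 probe.

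The upstream sequences of HMGCS1, FDPS and ACSS2 are shown with that of SC5D, the one synthesis gene called lower in an HCC95 fit, and with those of SREBF2 and MSMO1, which carried a sterol regulatory element core. Each line holds the 200 bases just before the gene's RefSeq extent (GRCh38.p14), in the sense of the gene. For ACLY the listed starts lie inside that extent, and no window is shown. Capitals mark NF-Y boxes (CCAAT, read as ATTGG on the other strand) and the core TCACNCCA.
HMGCS1 (chr5:43313413-43313612, minus strand): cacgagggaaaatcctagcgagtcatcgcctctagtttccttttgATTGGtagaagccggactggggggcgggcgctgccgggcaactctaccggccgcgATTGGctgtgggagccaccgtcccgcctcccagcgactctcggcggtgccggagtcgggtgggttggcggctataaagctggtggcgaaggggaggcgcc
FDPS (chr1:155308666-155308865, plus strand): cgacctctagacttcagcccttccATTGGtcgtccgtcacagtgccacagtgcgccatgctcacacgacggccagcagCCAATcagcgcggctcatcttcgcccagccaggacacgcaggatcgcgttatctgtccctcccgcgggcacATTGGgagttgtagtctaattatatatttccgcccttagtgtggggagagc
ACSS2 (chr20:34874789-34874988, plus strand): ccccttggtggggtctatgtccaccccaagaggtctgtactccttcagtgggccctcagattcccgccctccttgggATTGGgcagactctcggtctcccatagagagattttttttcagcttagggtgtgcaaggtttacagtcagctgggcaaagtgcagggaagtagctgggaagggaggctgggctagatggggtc
SC5D (chr11:121292571-121292770, plus strand): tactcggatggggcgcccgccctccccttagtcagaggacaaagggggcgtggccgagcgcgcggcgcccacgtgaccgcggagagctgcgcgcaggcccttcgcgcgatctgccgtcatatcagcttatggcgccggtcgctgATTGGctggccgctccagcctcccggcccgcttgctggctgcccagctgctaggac
SREBF2 (chr22:41832905-41833104, plus strand): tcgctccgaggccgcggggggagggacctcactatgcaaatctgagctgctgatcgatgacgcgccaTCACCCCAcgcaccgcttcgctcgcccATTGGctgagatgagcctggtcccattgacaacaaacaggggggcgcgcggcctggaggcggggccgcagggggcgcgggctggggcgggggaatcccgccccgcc
MSMO1 (chr4:165327469-165327668, plus strand): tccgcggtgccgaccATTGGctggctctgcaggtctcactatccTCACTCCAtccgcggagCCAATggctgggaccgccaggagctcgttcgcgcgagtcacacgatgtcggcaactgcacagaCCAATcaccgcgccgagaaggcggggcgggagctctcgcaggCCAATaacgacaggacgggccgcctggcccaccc
Of the 30 genes, 26 had a RefSeq promoter, taken from 250 bases before to 50 bases after the start. The NF-Y box CCAAT, on either strand, stood in the promoters of 21 of the 26 genes (80.8%), against 39.7% of 27305 genes. The Sp1 box GGGCGG, on either strand, stood in 25 of the 26 (96.2%), against 48.3% of all genes. The core TCACNCCA was found for 3 (SREBF2, MVK and MSMO1; 11.5%, against 4.8%), and the E-box CACGTG for 3 (INSIG1, LSS and SC5D; 11.5%, against 8.8%). A gene with several starts counted once if any of its promoters had the letters, and a core followed by AT would also hold a CCAAT box. Counted by promoter, CCAAT was in 25 of 36 (69.4%), against 34.6% of 35116. The list was drawn up as SREBP-regulated genes, so these shares describe the list, and a match is not a site of binding.

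**Figure D1:**
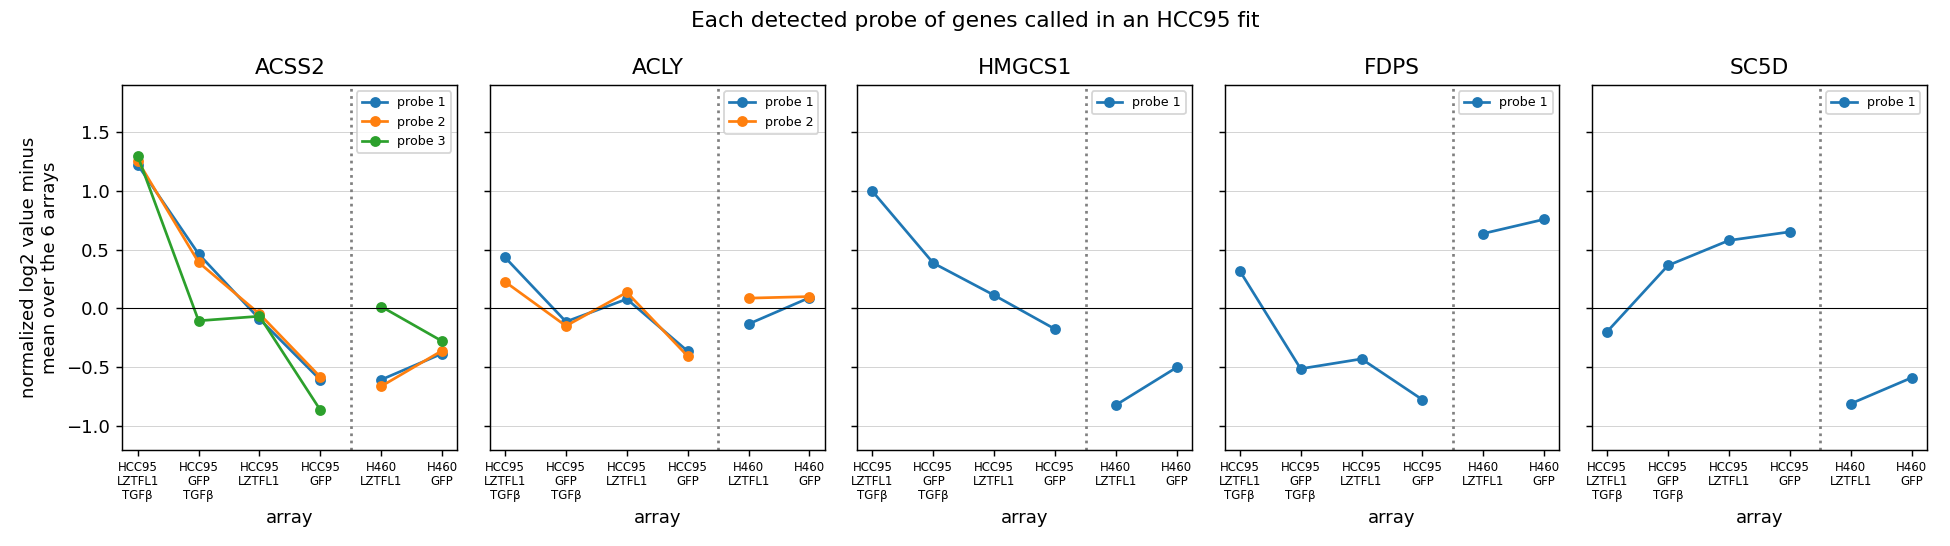
Each detected probe of the 5 genes called in an HCC95 fit, as normalized log2 value minus that probe's mean over the 6 arrays (y axis), on each array (x axis; lines join arrays of 1 cell line). All 3 ACSS2 probes were highest on the HCC95 array with LZTFL1 and TGFβ and lowest on the untreated GFP array among HCC95 arrays, though they lay apart on the GFP array with TGFβ, and SC5D ran the other way to ACSS2 and HMGCS1.

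The remaining mevalonate enzymes were mostly above 0 without being called. ACAT2, which condenses acetyl-CoA, differed by 0.31 with TGFβ and 0.30 without, and the fit gave 0.30 (SE 0.122, adjusted p = 0.132, limma). PMVK, phosphomevalonate kinase, differed by 0.26 and 0.37. IDI1, which isomerizes isopentenyl diphosphate, differed by 0.54 with TGFβ and 0.01 without. MVK, mevalonate kinase, was higher by 0.62 without TGFβ, and was not detected on the GFP array with TGFβ, which leaves at least a 1.18-fold difference there. MVD, which decarboxylates mevalonate diphosphate, stood at -0.06 and -0.13. In the fit 6 of these 7 pathway members were above 0, with a median of 0.32.

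The 10 measured enzymes of the squalene and sterol steps had 0 calls (limma), and 8 of them were above 0, with a median of 0.22. An unadjusted p under 0.05 was found for 4 (40%, against 22% of all features). These were NSDHL, EBP and HSD17B7, which were higher, and SQLE, which was lower. NSDHL, a sterol dehydrogenase, differed by 0.36 with TGFβ and 0.42 without (fit 0.39, adjusted p = 0.0917, limma), and EBP, the sterol isomerase, by 0.51 and 0.27. LSS, which closes the sterol rings, differed by 0.20 and 0.25, DHCR7, which makes cholesterol from its last precursor, by 0.12 and 0.31, and TM7SF2, a sterol reductase, by 0.15 and 0.22. SQLE, the epoxidase that commits squalene to sterols, went the other way at -0.13 and -0.56, and a second SQLE probe gave -0.16 and -0.54. SC5D, a desaturase late in the route, gave -0.56 and -0.07. HSD17B7 differed by 0.58 and 0.06, but it has a near-identical transcribed copy, so its value is uncertain.

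CYP51A1 and MSMO1, which take methyl groups off lanosterol, did not keep a direction between the 2 HCC95 pairs. CYP51A1 had 8.25 with LZTFL1 and 7.40 with GFP on the TGFβ-labelled arrays, and 7.52 with LZTFL1 and 7.85 with GFP on the untreated arrays. MSMO1 had 10.11 with LZTFL1 and 9.52 with GFP with TGFβ, and 9.36 with LZTFL1 and 9.71 with GFP without. The other 2 MSMO1 probes differed by -0.61 and -0.32 with TGFβ, against 0.60 for the brightest, so the direction of MSMO1 depends on the probe.

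Past acetyl-CoA, the fatty acid enzymes had 0 calls with the LZTFL1 label. ELOVL6, which lengthens palmitate, differed by 0.59 with TGFβ and 0.33 without (fit 0.46, adjusted p = 0.0904, limma), while its second probe gave 0.19 and -0.24. ACACA, which makes malonyl-CoA, differed by 0.34 and -0.01, and its second detected probe by 0.50 and 0.27. FASN, fatty acid synthase, differed by -0.06 and 0.24. The desaturases SCD (-0.11 and -0.18), FADS1 (-0.37 and -0.19) and FADS2 (0.11 and 0.13) did not share a direction. Neither of the regulators tested was called: SREBF1, which encodes SREBP1, gave -0.36 and -0.11, and INSIG1, which retains SREBPs in the endoplasmic reticulum and is itself their target, gave 0.06 and 0.01. A second INSIG1 probe gave 0.49 in both pairs, and a second SREBF1 probe gave -0.65 with TGFβ and 0.09 without. SREBF2, which encodes SREBP2, was detected on 2 arrays, both labelled LZTFL1 and untreated, in HCC95 at 5.50 and in H460 at 5.79, close to the lowest detected values of those arrays (5.33 and 5.38).

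Between probes of 1 gene, the differences in these pairs had an SD of 0.270 with TGFβ and 0.263 without. A single gene's difference below that size is within the spread between probes. By direction, 19 of 26 synthesis genes detected on both arrays were above 0 with TGFβ, where 52.9% of features were, and 18 of 27 without TGFβ, where 50.7% were. Under median scaling these were 21 of 26, where 59.1% of features were, and 14 of 27, where 30.7% were.

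**Figure D2:**
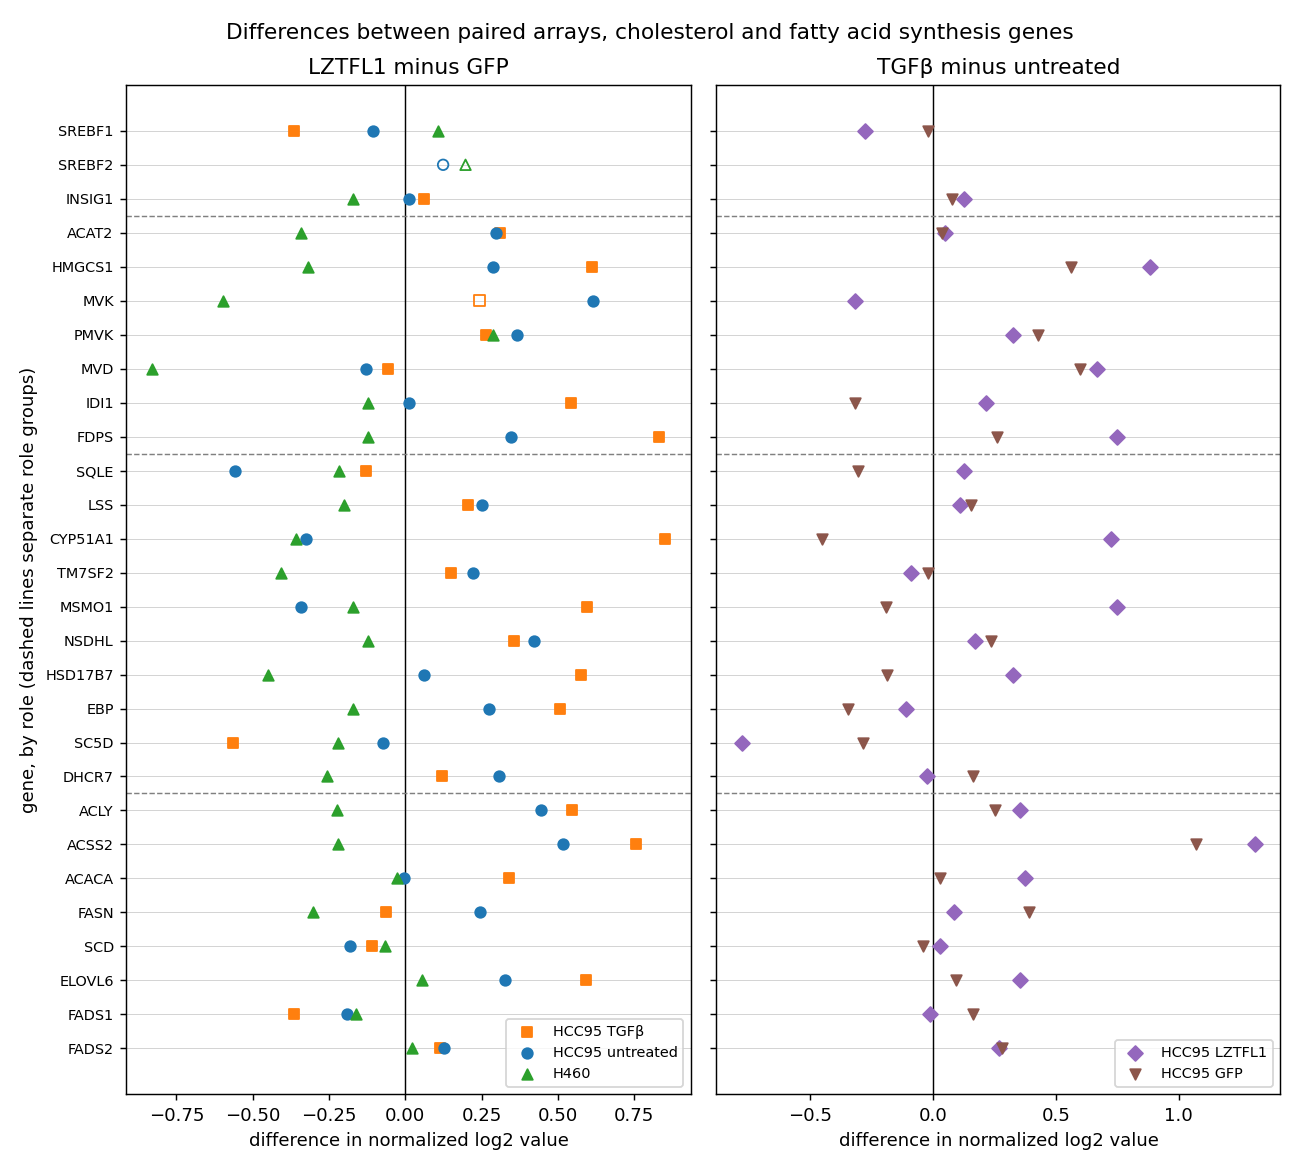
Difference in normalized log2 value for each detected synthesis gene (rows, by role), LZTFL1 minus GFP on the left and TGFβ minus untreated on the right; hollow points are bounds, where 1 of the 2 arrays was not detected. In H460, 23 of 27 genes detected on both arrays lie below 0 (18 of 27 under median scaling, not drawn), and ACSS2 lies furthest right of all genes in both TGFβ differences.

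In H460 the same comparison went downward. On the array labelled LZTFL1, 23 of 27 synthesis genes detected on both arrays were lower than on the GFP array, where 51.5% of all features were lower. The median of the 28 genes was -0.19, against 0.00 for all features. Under median scaling, which placed the median of all features at 0.13, that of the genes was -0.03, and 18 of 27 were lower, where 23.4% of features were. The set was thus lower relative to other features under both scalings, while the size and sign of a single small difference depend on the scaling. Of the synthesis genes 0 reached 2-fold, where 0.155% of features did. The widest differences were those of MVD (1.78-fold lower) and MVK (1.51-fold lower). With 1 array on each side there was no test.

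All 10 measured enzymes of the squalene and sterol steps were lower, by between 0.12 and 0.45 on the log2 scale, and 9 of 10 were under median scaling. HSD17B7 had 10.00 with LZTFL1 and 10.45 with GFP, TM7SF2 had 7.80 with LZTFL1 and 8.21 with GFP, and CYP51A1 had 7.25 with LZTFL1 and 7.60 with GFP. DHCR7 had 10.25 with LZTFL1 and 10.51 with GFP. These 4 gaps exceed the SD between probes of 1 gene in this pair, 0.209, while those of NSDHL (-0.12), EBP (-0.17) and MSMO1 (-0.17) do not. However, a second DHCR7 probe differed by -0.13, within that SD, and the value of HSD17B7 is uncertain, as stated above.

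Of the 7 mevalonate genes, 6 were lower, and 4 under median scaling. MVD had 6.35 with LZTFL1 and 7.18 with GFP, the widest gap of the set, and MVK had 6.23 with LZTFL1 and 6.82 with GFP. ACAT2 had 10.76 with LZTFL1 and 11.10 with GFP, and HMGCS1 had 10.40 with LZTFL1 and 10.72 with GFP. PMVK was the exception, with 8.23 on the LZTFL1-labelled array and 7.94 on the GFP array. Among fatty acid genes, FASN had 12.76 with LZTFL1 and 13.06 with GFP, ACSS2 had 10.10 with LZTFL1 and 10.32 with GFP, and ACLY had 11.31 with LZTFL1 and 11.53 with GFP. Other probes did not bear out every one of these: a second ACLY probe differed by -0.01 and a dim ACSS2 probe by 0.29. ELOVL6 (0.06) and FADS2 (0.02) were near 0, and the regulators gave 0.11 for SREBF1 and -0.17 for INSIG1. Here too the second probes differed, with -0.22 for ELOVL6 and 0.03 for INSIG1.

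The synthesis genes are bright, so they were set beside bright features. Of the 2408 features in the H460 pair at or above the median level of the set (9.65 on the log2 scale), 50.1% were lower with the LZTFL1 label. All 13 synthesis genes in that range were lower. Below that level, 10 of 14 were. In HCC95 the same split was less marked. With TGFβ, 9 of 13 genes at or above that level were higher with the LZTFL1 label, where 52.4% of such features were. Without TGFβ it was 8 of 13, where 52.6% of such features were.

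Whether the LZTFL1-label difference itself differed between the lines was tested over all 6 arrays. Of 28 synthesis genes, 0 were called higher and 0 lower in H460 than in HCC95 (limma), where 0.241% of 14101 features were called higher and 0.0638% lower. At an unadjusted p under 0.05 there were 12 (42.9%, against 10.5% of all features). The differences lay below 0 for 22 of 28, with a median of -0.42 against 0.00 for all features, and for 7 of 7 mevalonate genes. Under median scaling they lay below 0 for 19 of 28, with a median of -0.23 against 0.19 for all features. ACSS2 had the smallest adjusted p (-0.86, SE 0.213, adjusted p = 0.0845), followed by HMGCS1 (-0.77, adjusted p = 0.115) and ACLY (-0.72, adjusted p = 0.125). By sign alone, 13 of the 26 genes detected on all 6 arrays were higher in both HCC95 pairs and lower in H460, where 18.3% of 9705 features had that pattern. Under median scaling it was 9 of 26, where 5.27% of features had it. The 13 were INSIG1, ACAT2, HMGCS1, IDI1, FDPS, LSS, TM7SF2, NSDHL, HSD17B7, EBP, DHCR7, ACLY and ACSS2. Each was read by its probe with the highest mean, and the second INSIG1 probe was not lower in H460.

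**Figure D3:**
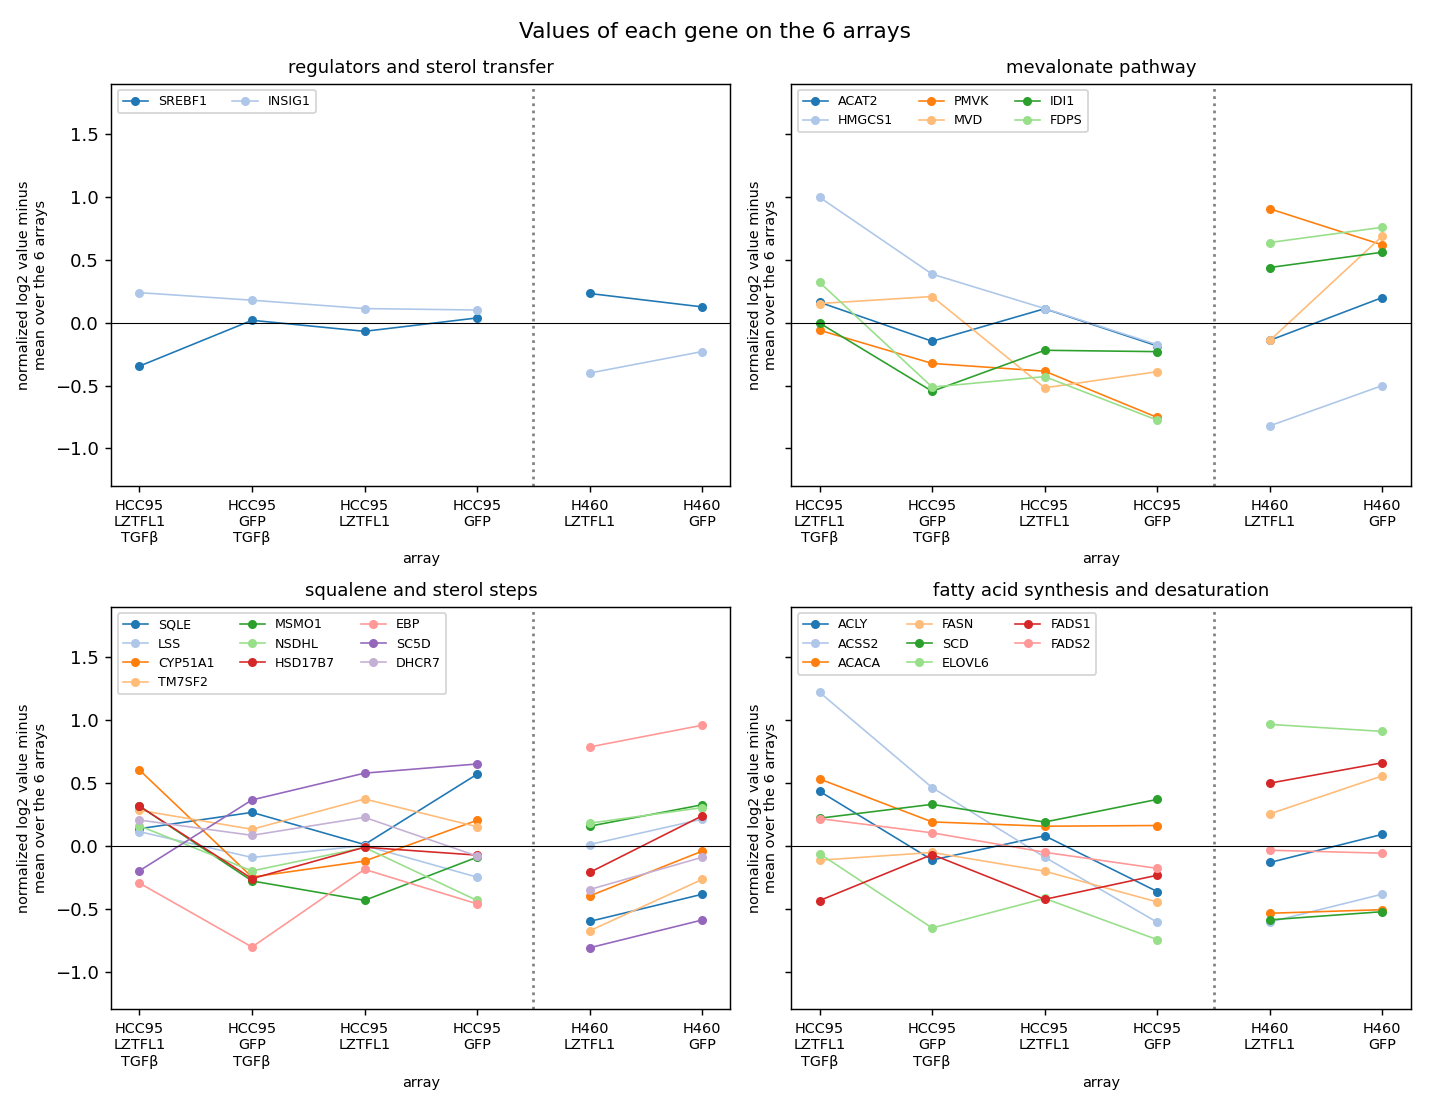
Normalized log2 value of each gene detected on all 6 arrays, minus its own mean over the arrays (y axis), in 4 panels by role; lines join the arrays of 1 cell line. The HCC95 array labelled LZTFL1 and TGFβ is the highest HCC95 array for 16 of 26 genes, each read by its probe with the highest mean.

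The next comparison asked what the TGFβ label did to the same genes in HCC95. It uses the same 4 arrays as the LZTFL1 fit. With vector as a term, 2 of 27 synthesis genes were called higher and 1 lower, where 3.42% of features were called higher and 2.76% lower. In all, 19 of 27 were above 0, with a median of 0.13 against 0.00 for all features. At an unadjusted p under 0.05 (limma) there were 7 of 27 (25.9%), against 20.4% of all features. Under median scaling 1 of the 2 higher calls was left, 9 of 27 were above 0, where 23% of features were, and the median was -0.09 against -0.21 for all features.

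ACSS2 had the largest difference of the set. It was 11.92 with TGFβ and 10.61 untreated on the LZTFL1-labelled arrays, and 11.17 with TGFβ and 10.09 untreated on the GFP arrays. Both TGFβ-labelled arrays lay above both untreated arrays. The fitted difference was 1.19 (2.28-fold, SE 0.123, adjusted p = 1.64e-07, limma). It was the 1 synthesis gene past 2-fold in each pair, where 1.51% of features with LZTFL1 and 0.889% with GFP were. The other 2 detected probes gave 1.30 and 1.36 with LZTFL1, and 0.97 and 0.76 with GFP.

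HMGCS1 was also higher on both TGFβ-labelled arrays, with the values given above, and its groups did not overlap. The share of all features whose groups did not overlap was not counted in either HCC95 fit. The fitted HMGCS1 difference was 0.72 (1.65-fold, SE 0.119, adjusted p = 0.00021, limma). MVD had 6.65 with TGFβ and 5.98 untreated with LZTFL1, and 6.70 with TGFβ and 6.10 untreated with GFP, without passing the adjustment (0.63, SE 0.223, adjusted p = 0.0934, limma). FDPS likewise gave 0.75 with LZTFL1 and 0.26 with GFP (0.51, SE 0.164, adjusted p = 0.0637, limma).

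SC5D was the gene called lower. It had 8.33 with TGFβ and 9.10 untreated on the LZTFL1-labelled arrays, and 8.89 with TGFβ and 9.17 untreated on the GFP arrays. Both TGFβ-labelled arrays lay below both untreated arrays. The fitted difference was -0.53 (1.44-fold lower, SE 0.157, adjusted p = 0.0401, limma), and the call was lost under 8 of 11 other settings.

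The TGFβ differences were also counted by role. With LZTFL1, 7 of 8 fatty acid genes, 6 of 7 mevalonate genes and 6 of 10 sterol-step genes were above 0. With GFP, 7 of 8 fatty acid genes, 5 of 6 mevalonate genes detected on both arrays and 3 of 10 sterol-step genes were. Under median scaling, in the same order of roles, these were 7 of 8, 5 of 7 and 5 of 10 with LZTFL1, and 2 of 8, 3 of 6 and 0 of 10 with GFP. Over the whole set it was 20 of 27 with LZTFL1, where 52.7% of features were above 0, and 16 of 26 with GFP, where 51.5% were. Under median scaling it was 18 of 27 with LZTFL1, where 41% of features were above 0, and 5 of 26 with GFP, where 16.4% were, so the direction of the GFP pair turned (median -0.21, against -0.28 for all features). The sterol-step median was 0.12 with LZTFL1 and -0.19 with GFP, and the difference between vectors was not tested, since the 4 arrays leave no residual degree of freedom for it.

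The array that carried both labels stood out by rank. Among the 4 HCC95 arrays, the one labelled LZTFL1 and TGFβ was the highest for 16 of 26 synthesis genes, where it was the highest for 29.7% of 10800 features. The untreated GFP array was the lowest for 13 of 26, and for 27.9% of features. INSIG1, ACAT2, HMGCS1, PMVK, FDPS, LSS, NSDHL, ACLY, ACSS2, ELOVL6 and FADS2 had both the highest value on the first and the lowest on the second. These ranks were counted on the quantile-normalized values only. Under median scaling 21 of 26 genes were lower on the GFP array with TGFβ than on the untreated GFP array, as were 83.6% of features. The lowest rank of the untreated GFP array therefore depends on the scaling for most of the genes just named. The ranks also depend on the probe, since each gene was read by its probe with the highest mean. A second ELOVL6 probe was highest on the untreated GFP array (7.05). A second INSIG1 probe was highest on the untreated LZTFL1 array (7.45) and lowest with GFP and TGFβ (6.92). The other 2 MSMO1 probes were lowest with LZTFL1 and TGFβ (7.75 and 6.29). The second ACLY probe and the other 2 detected ACSS2 probes kept both ranks.

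The last comparison set H460 against HCC95, untreated, with vector as a term. The synthesis genes did not move as a block: 10 of 28 were called higher and 7 lower in H460, where 25.1% of 13803 features were called higher and 28.1% lower. At an unadjusted p under 0.05 (limma) there were 17 of 28 (60.7%), against 58.4% of all features. The largest differences were in ELOVL6, PMVK, FDPS and EBP, all higher in H460, and SC5D, lower.

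Of the mevalonate genes, 4 were higher in H460 and 1 lower. PMVK had 8.23 and 7.94 in H460 with LZTFL1 and GFP, against 6.94 and 6.57 in HCC95 with the same vectors (1.33, SE 0.193, adjusted p = 8.58e-05, limma). FDPS had 9.46 and 9.58 in H460, against 8.40 and 8.05 in HCC95 (1.30, SE 0.181, adjusted p = 6.09e-05, limma). MVD (0.73) and IDI1 (0.72) were called higher as well. HMGCS1 was the one lower, with 10.40 and 10.72 in H460 against 11.33 and 11.04 in HCC95 (-0.63, SE 0.165, adjusted p = 0.00654, limma). For all 5 called mevalonate genes the values did not overlap between the lines. The share of all features without overlap was not counted, so this does not set these genes apart.

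The sterol steps split evenly, with 3 higher and 3 lower of 10. EBP had 9.92 and 10.09 in H460 with LZTFL1 and GFP, against 8.95 and 8.67 in HCC95 (1.20, SE 0.172, adjusted p = 8.15e-05, limma), and MSMO1 (0.50) and NSDHL (0.47) were also called higher. SC5D had 7.71 and 7.93 in H460, against 9.10 and 9.17 in HCC95 (-1.31, SE 0.175, adjusted p = 4.27e-05, limma). SQLE (-0.78) and TM7SF2 (-0.73) were called lower.

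Of the fatty acid genes, ELOVL6 had 9.54 and 9.49 in H460, against 8.16 and 7.83 in HCC95 (1.52, 2.87-fold, SE 0.174, adjusted p = 1.13e-05, limma), and its second probe differed by 1.75 with LZTFL1 and 1.73 with GFP. FADS1 (0.91) and FASN (0.73) were higher in H460, and SCD (-0.83) and ACACA (-0.68) lower. ACLY (0.12) and ACSS2 (-0.15), both called in the HCC95 fits, were not called between the lines. INSIG1 was lower (-0.42, adjusted p = 0.0325, limma), though its second probe gave -0.39 with LZTFL1 and 0.06 with GFP, and SREBF1 (0.19) and SREBF2 (0.23) were not called.

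**Figure D4:**
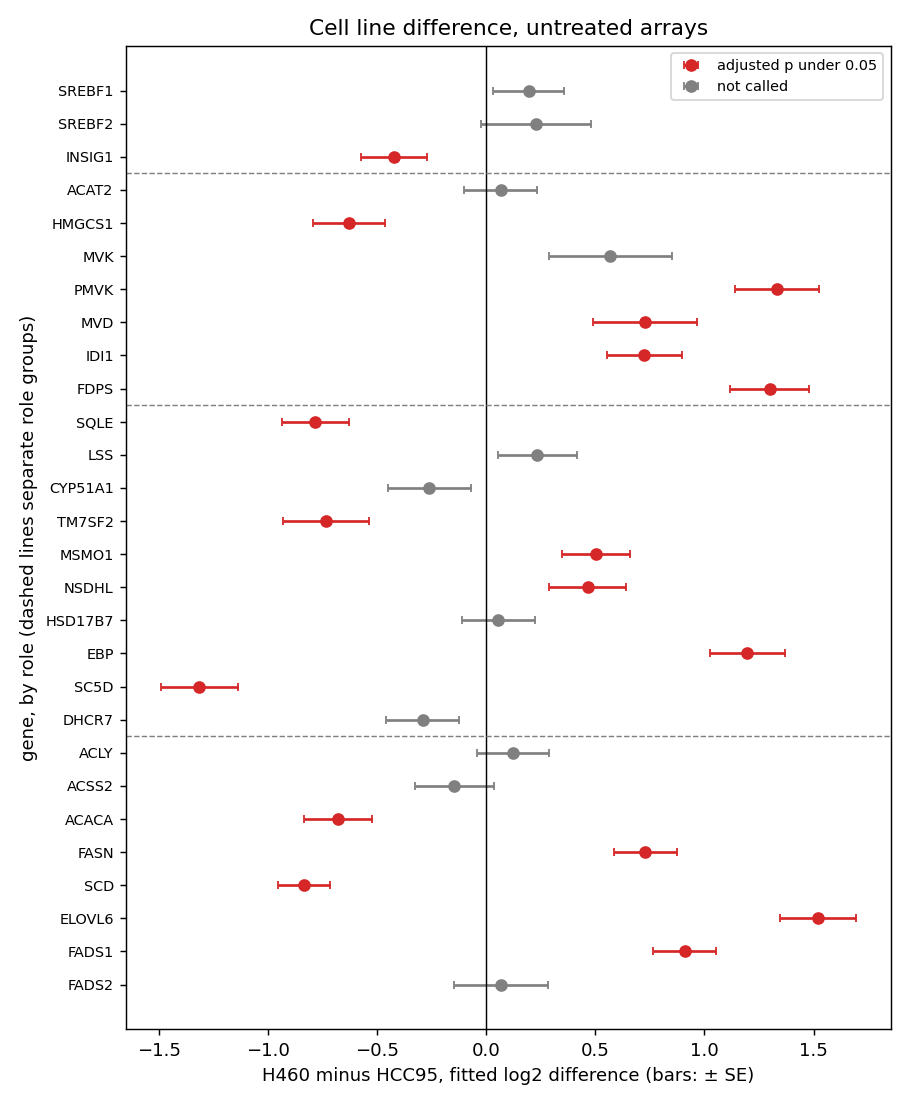
Fitted log2 difference between H460 and HCC95 on the untreated arrays for 28 synthesis genes (rows, by role), with bars of 1 SE; red points passed an adjusted p of 0.05. Among the red points 10 genes lie to the right of 0 and 7 to the left.

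Neighbouring lists were counted in the same fits. Over all features, 3.74% were called higher and 3.89% lower with the LZTFL1 label, and 3.42% and 2.76% with the TGFβ label. With the LZTFL1 label in HCC95, the genes that process SREBPs had 0 of 9 called higher and 1 lower, MBTPS1, the protease that makes the first cut (-0.62). Of 16 genes of sterol transport and storage, 2 were higher, the lipoprotein receptor SCARB1 (0.49) and the sterol-binding TMEM97 (0.47), and 2 lower, the lipoprotein receptor VLDLR (-1.08) and the sterol exporter ABCG1 (-0.49). The isoprenoid branch had 0 of 10 higher and 2 lower, GGPS1 (-0.64), which makes geranylgeranyl diphosphate from the FDPS product, and FNTA (-0.54), a subunit of farnesyltransferase. Other lipid synthesis had 0 of 18 higher and 2 lower, LPCAT3 (-0.58), which places unsaturated chains in phospholipids, and ME1 (-0.42), which supplies NADPH. With the TGFβ label, 1 of 16 transport genes was higher (the lipoprotein receptor LRP8, 0.72), 1 of 18 other lipid genes was higher (ACACB, the mitochondrial acetyl-CoA carboxylase, 0.98) and 1 lower (the desaturase SCD5, -0.72). Fatty acid oxidation had 1 of 15 higher (ETFB, 0.45) and 1 lower (ETFDH, -0.84) with the LZTFL1 label, both part of the electron transfer from acyl-CoA to the respiratory chain. With the TGFβ label 2 of 15 were higher, the isomerase ECI1 (0.83) and ETFB (0.52). No list of these 5 had a call in the test of the LZTFL1 difference between lines (limma). There sterol transport had 6 of 17 (35.3%) at an unadjusted p under 0.05 and isoprenoid genes 2 of 11 (18.2%), against 10.5% of all features. SREBP processing had 1 of 9 (11.1%), other lipid synthesis 1 of 18 (5.56%) and fatty acid oxidation 1 of 16 (6.25%).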

How the data were processed

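Per the labels, RNA of 6 human cell line samples was hybridized to HumanHT-12 v4 arrays from Illumina. The authors deposited an unnormalized signal intensity and a detection p-value for every probe and array, and a second table of processed intensities whose columns share a lowest value (3.33) and a median (13.1); GenomeStudio 2011.1 is named per the submitters' processing notes, with settings not given in the sources used here. With limma 3.58.1 in R 4.3.3, neqc corrected the background from the deposited detection p-values, added an offset of 16, quantile-normalized and took log2 of the deposited intensities, so folds of dim genes are understated. Of 47323 probes, 30113 had 1 gene symbol; 17202 unlisted probes stayed as features of their own, and each gene was represented by its probe with the highest mean. The text names all 30 members, with array values for those called, for the largest pair differences and for at least 2 per role, and from other lists up to 4 called genes a comparison.

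A probe was detected at a detection p under 0.01. Pairs used genes detected on 1 or both arrays; an undetected value was raised to the array's lowest detected value and the difference called a bound. The fits (lmFit, eBayes with trend, Benjamini-Hochberg at 0.05) used features detected on at least 2 arrays and left 1 residual degree of freedom, so an SE comes largely from other genes of like brightness, and the number of arrays limits the precision. The LZTFL1, TGFβ and line fits used 4 arrays each and share arrays. Median scaling placed the median of all features at -0.21 in the TGFβ fit, -0.05 in the LZTFL1 fit, -0.19 in the line fit and 0.19 in the test between lines, and changed the split of calls to 110 higher and 290 lower with LZTFL1 (476 and 496 here), 121 and 746 with TGFβ (435 and 351) and 2349 and 4261 for H460 (3468 and 3877). Members and lists were chosen with earlier results of these data known.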

Additional observations from a re-analysis of the deposited data

Results flagged for a closer look

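Of the 26 synthesis genes detected on all HCC95 arrays, 8 moved one way with the TGFβ label on the LZTFL1-labelled arrays and the other way on the GFP arrays (30.8%, against 35.1% of all features). The difference was not tested, because each condition has 1 array. CYP51A1 stood apart most, with 0.72 with LZTFL1 against -0.45 with GFP, a difference of 1.18. MSMO1 differed by 0.94 (0.75 with LZTFL1, -0.19 with GFP), and its other 2 probes went the opposite way. IDI1 differed by 0.53 (0.22 with LZTFL1, -0.32 with GFP), HSD17B7 by 0.51 (0.33 with LZTFL1, -0.19 with GFP) and SQLE by 0.43 (0.13 with LZTFL1, -0.30 with GFP). SCD (0.070), FADS1 (-0.17) and DHCR7 (-0.19) had differences smaller than the SD between probes of 1 gene.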

How the results depend on the processing

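The 4 calls for the LZTFL1 label in HCC95 were reduced to 1 by median scaling, 2 without background correction, and 0 with the mean over a gene's probes, without the mean-variance trend or without the treatment term. The 2 higher calls for the TGFβ label became 1 with median scaling or without the trend and 0 without the vector term. The 1 lower call, SC5D, became 0 with the deposited processed values, with no background step, at an offset of 50, with the mean over probes, at a detection p under 0.05, without the trend, without the vector term, or over probes with 1 listed gene (an alternative added after seeing the data). The 10 higher calls for H460 became 6 with median scaling. For the LZTFL1 difference between lines, 1 gene, ACSS2, was called lower at a detection p under 0.05 or with no filter. The members' own median turned with median scaling in the TGFβ pair with GFP (-0.21, against 0.08) and came to -0.03, against -0.19, in H460. Their median relative to all features kept its sign in 6 of 7 pairs; for H460 over HCC95 with LZTFL1 (-0.02) it was 0.011 with no filter and 0.00013 over probes with 1 listed gene. Genes called under any setting were also counted once for each fit and each alternative setting. Of these results 0 changed sign, 40 lost the call, 2 gained one (both ACSS2) and 233 kept their side of the threshold. The cause was not tested. Counts of signs under median scaling were added after seeing the data. ACSS2 kept its TGFβ call in 10 of 11 alternatives. No paired analysis was possible because all arrays are labelled replicate 1, so no numbers pair them; the treatment or vector term matches arrays by condition instead. Leaving out an array leaves no residual degree of freedom. Dim genes such as SREBF2 and MVK are limited by signal over background.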

Other observations

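Untreated H460 had 10 of 16 fatty acid oxidation genes called higher than HCC95 and 4 lower, where 25.1% of features were called higher and 28.1% lower (limma, 4 arrays). DECR1, a reductase for unsaturated chains, differed by 2.74 on the log2 scale and ETFDH by 2.24, while CPT1A, which admits fatty acids to mitochondria, differed by -2.32. Of 17 sterol transport and storage genes, 5 were higher and 10 lower, among them SCARB1 (1.94), the oxysterol receptor NR1H3 (1.37), the sterol exporter ABCG1 (-2.62) and MYLIP (-2.84), a ligase that marks lipoprotein receptors for breakdown. Other lipid synthesis had 9 of 18 higher and 6 lower, with ACSL4 (1.79), MID1IP1 (1.78), LPCAT3 (-2.52) and SCD5 (-2.53). SREBP processing had 2 of 9 higher and 3 lower, led by MBTPS2 (2.21), the protease that makes the last cut, and ERLIN2 (-1.54). The isoprenoid branch had 3 of 11 higher and 2 lower. No spread between cultures stands behind these values.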
